A study of Mus musculus with 4 samples.

Results

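Mafk binding was mapped by chromatin immunoprecipitation and sequencing (ChIP-seq) in the mouse cell line M1, a myeloid leukemia grown here without stimulation. All 1759 peaks of the deposited Mafk list are described here, of 7017 peaks in the lists of all 3 factors of the series. The members were chosen by the library alone: every peak that the authors' peak caller listed for Mafk is included. Mafk was precipitated with an antibody bought as anti-NF-E2 p18 (another name for the protein), and input DNA of the same cell line, taken without antibody, was the series' control library. No allele or agent is named for either library. The series holds 1 Mafk library, so no value below has a replicate error. Intervals cover counting error or the spread over peaks or chromosomes only. A list of peaks holds no expression values, so the identity of the cells was not checked against markers, and whether the antibody also binds the related proteins Maff and Mafg was not tested.

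Mafk is a small Maf protein, a basic leucine zipper factor that has a DNA-binding and dimer-forming domain but no activation domain of its own. It binds Maf recognition elements as a homodimer or together with a larger partner of the CNC family, such as the activators p45 NF-E2 and Nrf2 or the repressors Bach1 and Bach2. NF-E2 p18 was named as the small subunit of the erythroid factor NF-E2, which acts at the globin loci, and small Maf dimers are known at genes of heme breakdown and antioxidant defence. The peaks below are given by position on the mouse build mm9 and carry no gene names or sequences, because genes were listed here on GRCm38.p6 and not on mm9. Peaks at known target genes and binding motifs were therefore not analysed here.

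Mafk peaks were found on every autosome and on both sex chromosomes, and their density on chromosome X lay below that of every autosome. Over the 19 autosomes 1742 peaks were listed, which is 0.705 peaks per Mb of mm9 sequence (95% exact Poisson interval 0.672 to 0.738). Chromosome X held 16 peaks, or 0.0960 per Mb (0.0549 to 0.156), which is 13.6% of the autosomal density. Chromosome Y held 1 peak, and the mitochondrial genome and unplaced sequence held 0. Together the 1759 peaks covered 606444 bp, or 0.0228% of the assembled chromosomes.

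Some autosomes differed by more than their counting error. Chromosome 15 had the highest density, with 114 peaks and 1.102 per Mb (0.909 to 1.32), and chromosome 16 followed with 106 peaks and 1.08 per Mb (0.883 to 1.30). Chromosome 12 had the lowest, with 54 peaks and 0.445 per Mb (0.335 to 0.581), next to chromosome 7 with 0.485 (0.381 to 0.609) and chromosome 14 with 0.495 (0.380 to 0.635). The intervals of chromosomes 15 and 16 overlap each other and do not overlap those of chromosomes 12, 7 and 14. These chromosomes were picked by their rank, and the intervals take peaks as independent, so this is a description and not a test. Chromosome 3 held the most peaks by number, 151, at a density of 0.946 per Mb (0.801 to 1.11).

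**Figure D1:**
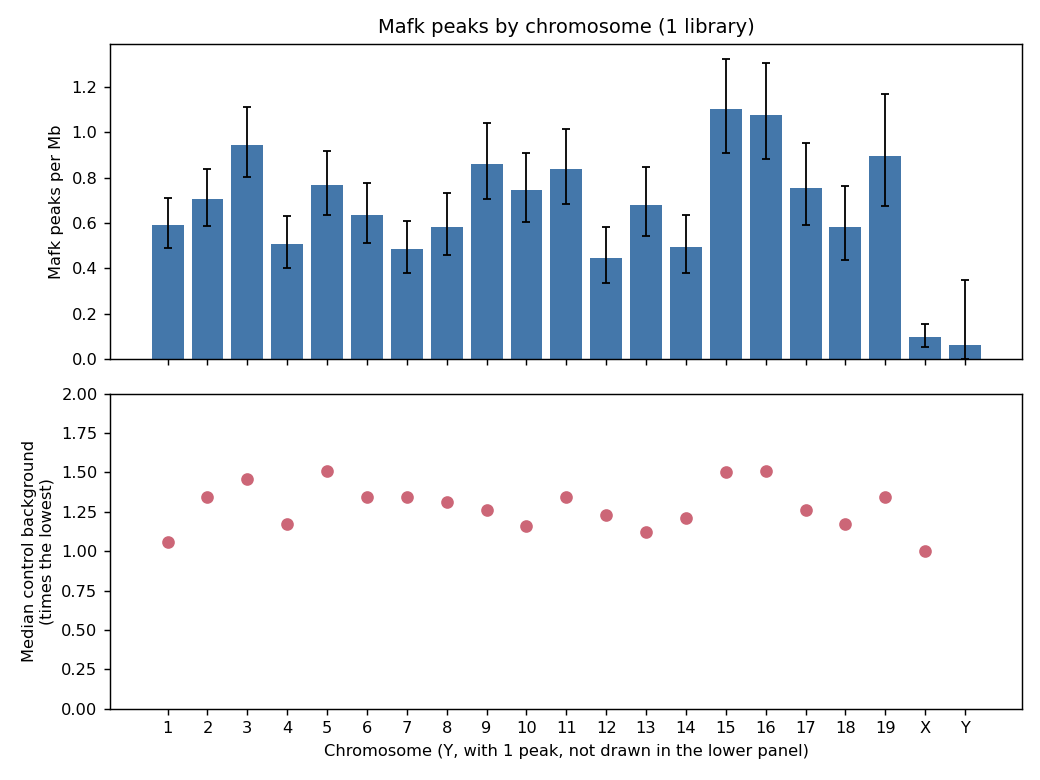
Mafk peaks per Mb of each mm9 chromosome (upper panel; bars are counts over chromosome length, error bars exact Poisson 95% intervals) and the median control background at the Mafk peaks of each chromosome, in multiples of the lowest background in the list (lower panel; points are medians over peaks). Chromosomes 15 and 16 stand highest in the upper panel at 1.102 and 1.08 per Mb, and chromosome X stands at 0.0960.

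The control background at a summit was computed from the pileup and the fold enrichment. The pileup is the number of overlapping fragments at the summit, and the fold enrichment is the authors' ratio of the pileup to what the control gives locally. The background is on the scale of the pileup, also where it is given in fragments, and is not a count of control fragments. The lowest background in the list was 5.39 fragments, and 481 peaks, or 27.3%, stood at it (tolerance 0.001). These peaks had 54 different pileups. A single value shared by so many peaks may be a lower limit set in peak calling. The local control at these peaks may therefore be lower than computed, which was not tested. The median background of a chromosome's peaks went partly with its peak density. It was 1.504 times the lowest on chromosome 15, 1.51 on chromosome 16, 1.51 on chromosome 5 and 1.46 on chromosome 3. Lower values were 1.06 on chromosome 1 and 1.12 on chromosome 13. Chromosome X had 1.00, with 8 of its 16 peaks at the lowest background, so a control below that value might not show. The autosomes of lowest density, 12, 7 and 14, had 1.23, 1.34 and 1.21, so that chromosome 7 stood level with chromosome 19 (1.34), where the density was 0.897 per Mb. The single peak of chromosome Y stood at 10.6 times. Across the 19 autosomes, density and median background had a Spearman rho of 0.619 (95% interval over the chromosomes 0.186 to 0.850). It is given as a description, since the points share 1 library and 1 control. The part of the control background in the differences between chromosomes was not tested.

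On chromosome X, 8 of the 16 peaks stood at the lowest background. The peak at chrX:143370856-143371254 had the highest fold enrichment there, 7.99, with a pileup of 50 fragments. The tallest peak of chromosome X, at 147299936 to 147300170, had a pileup of 289 fragments over a background 15.8 times the lowest. The 2 longest stretches without a Mafk peak between listed peaks were also on this chromosome, of 23.0 Mb and 19.3 Mb, and the longest on an autosome was 15.8 Mb on chromosome 7, from 35019208 to 50800187. The density on X was also below the autosomal one in the other lists: 70 Bach1 peaks gave 27.3% of the autosomal density of that list and 14 Bach2 peaks gave 15.1%. The difference between lists was not tested.

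Within chromosomes the peaks were spread widely. Of 543 windows of 5 Mb, 467 held at least 1 Mafk peak and 76 held none, 25 of them on chromosomes X and Y. The windows with peaks held a median of 3, and 17 windows held 10 or more, with 195 peaks between them. The densest were chromosome 11 from 105 to 110 Mb and chromosome 16 from 25 to 30 Mb, with 15 peaks each. These windows differed in background: 5 of the 15 peaks in the chromosome 11 window stood at 3 times the lowest background or more, and 0 of the 15 in the chromosome 16 window did. The window of chromosome 16 from 20 to 25 Mb, with 13 peaks, borders the latter, and chromosome 1 from 165 to 170 Mb held 14 peaks at a median background of 1.03 times the lowest.

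Some windows combined several Mafk peaks with a high control. Among the 146 windows with 5 or more peaks, the median background within a window had a median of 1.34 times the lowest (quartiles 1.09 to 1.75). It reached 3 in 3 windows. The end of chromosome 5, from 145 to 150 Mb, had a median of 5.62 over 6 peaks, with a median pileup of 86 fragments and a median fold enrichment of 3.12. Chromosome 19 from 5 to 10 Mb had 3.19 over 5 peaks, and chromosome 3 from 120 to 125 Mb had 3.05 over 12 peaks.

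The typical Mafk peak was narrow, with its summit near the centre. The median length was 332 bp (95% interval of the median over peaks 324 to 337), with 5% of the peaks at or under 226 bp and 5% at or over 499 bp. The median pileup was 43 fragments (42 to 44) and the median fold enrichment 4.85 (4.82 to 4.96). A pileup of 43 fragments has an exact Poisson 95% interval of 31.1 to 57.9, which limits how closely single peaks can be ranked. The interval covers the count of fragments alone. It leaves out the error of the control and the choice of the summit as the highest point. The excess of the pileup over the background had a median of 34.7 fragments (quartiles 26.7 to 48.6). Summits lay a median of 20.5 bp from the centre of the peak (quartiles 9 to 39.8), and 1478 of 1759 lay in the central part of the peak (33.3% to 66.7% of its length), or 84.0% (95% Wilson interval 82.2 to 85.7). Summits were found as often left as right of the centre: 50.2% (47.9 to 52.5) lay on the side of the lower coordinate. In 3 peaks the summit was in the outer 10% at either end.

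Peak length and summit position went with fold enrichment. With the list divided into 5 equal groups by fold enrichment, median length went from 266 bp in the weakest group (fold enrichment up to 3.84) through 281, 307 and 362 bp to 426 bp in the strongest (from 6.58). The share of summits in the central part went from 67.9% (62.8 to 72.6) to 98.0% (95.95 to 99.03). Length and fold enrichment had a Spearman rho of 0.642 over the 1759 peaks, and length and background had -0.0467. The latter does not show that length and background are unrelated. Median length was 334 bp at the lowest background, 359 bp at 1.5 to under 2 times and 244 bp at 5 times or more. These are descriptions across the peaks of 1 library, and length and fold enrichment come from the same fragments.

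**Figure D2:**
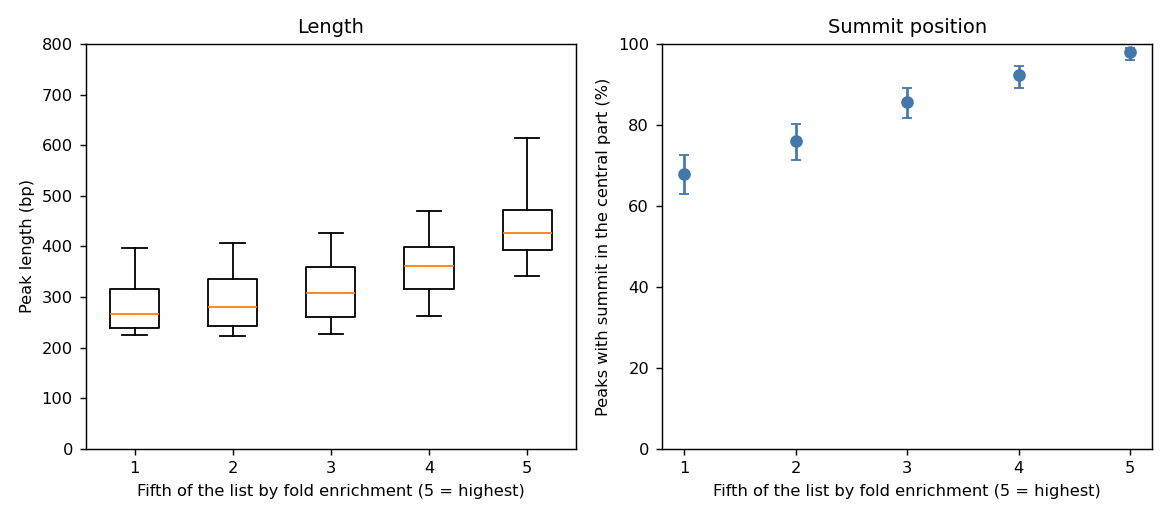
Mafk peaks in 5 groups of equal size by fold enrichment. The left panel gives peak length in bp (line, median; box, quartiles; whiskers, 5th to 95th percentile), and the right panel the percentage of peaks with the summit in the central part (points, with Wilson 95% intervals). Median length runs from 266 to 426 bp and the share of central summits from 67.9% to 98.0%.

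The lower end of the length range was sharp. The shortest length, 223 bp, recurred at 61 peaks, or 3.47%, which had a median pileup of 27 fragments and a median fold enrichment of 4.07. A minimum shared so exactly may be a limit set in peak calling and not a feature of the sites, which was not tested. At the upper end, 86 peaks were longer than 500 bp, with a median fold enrichment of 8.84, and 11 were longer than 700 bp. A single peak exceeded 1000 bp: chr17:39979996-39985741, of 5746 bp. It had a pileup of 238 fragments, a fold enrichment of 2.56 and a background 17.2 times the lowest, and its summit lay at 39980910, near the lower edge. The next longest, at chr7:89919614-89920544 (931 bp), also stood over a high background, 8.56 times the lowest, with a fold enrichment of 3.38.

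The other peaks among the 5 longest were strong sites over a low control. The peak at chr16:36516252-36517160 (909 bp) had a fold enrichment of 15.4. The peak at chr3:102360386-102361286 (901 bp) had 12.4. The peak at chr3:107058500-107059338 (839 bp) had 14.3. Their backgrounds were 1.34, 1.68 and 1.04 times the lowest.

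The tallest Mafk peaks and the most enriched ones were different peaks. Of the 50 with the highest pileup (127 fragments or more) and the 50 with the highest fold enrichment (10.6 or more), 5 were the same. Among the 50 tallest, 35 stood at 5 times the lowest background or more, and their median fold enrichment was 3.60. Among the 50 most enriched, 0 did, and their median pileup was 95 fragments. Median length was 321 bp in the tallest and 531 bp in the most enriched. Since fold enrichment has the background as its denominator, a higher background lowers it at a given pileup by arithmetic.

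The most enriched Mafk peak lay at chr16:22714179-22714896, with its summit at 22714573. Its pileup was 161 fragments, its fold enrichment 17.7 and its background 1.51 times the lowest. The peak at chr6:5379765-5380413 followed with a fold enrichment of 17.6 and a pileup of 112 fragments. Chromosome 2 held a peak at 76546470 to 76547177 with 17.3 and 126 fragments, and another at 69451315 to 69451752 with 15.7 and 103 fragments. Each of these peaks stood at no more than 1.51 times the lowest background.

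On chromosome 8, the peak at 130277916 to 130278616 had a fold enrichment of 16.9 with 107 fragments, and that at 28306480 to 28307010 had 15.5 with 102 fragments. The peak at chr14:71875443-71875922 had 16.8 with 106 fragments. The remaining peaks of the 10 most enriched were the 909 bp peak of chromosome 16 (15.4), 1 peak at chr6:147798349-147798951 (14.6) and 1 at chr10:44180082-44180557 (14.5). The 10 peaks were between 438 and 909 bp long, and all lay above the median length of the list. Counting error does not separate ranks this close: a pileup of 112 fragments has an exact Poisson 95% interval of 92.2 to 135. The error of the control, which also enters the fold enrichment, is not in this interval.

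**Figure D3:**
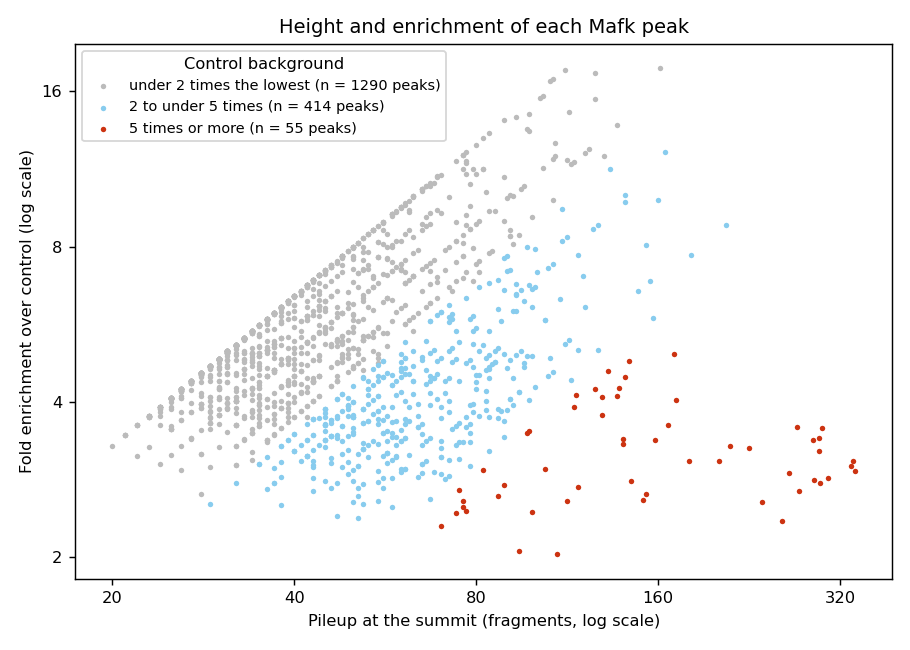
Pileup at the summit (horizontal, fragments, log scale) against fold enrichment over the control (vertical, log scale) for each of the 1759 Mafk peaks, coloured by control background. The straight upper edge is the 481 peaks at the lowest background, and the 55 peaks at 5 times the lowest or more lie at the lower right, with pileups from 70 to 339 and fold enrichments from 2.02 to 4.96.

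The tallest peaks had a common form. All of the 10 highest pileups, from 289 to 339 fragments, belonged to peaks of 224 to 243 bp, close to the shortest length in the list, with fold enrichments between 2.78 and 3.56. The highest pileup, 339 fragments, was at chr6:46342412-46342654, with a control background of 115 fragments, 21.3 times the lowest and the highest of the list. Chromosome 4 held peaks of 336 fragments at 93867459 to 93867696 and of 333 at 55879477 to 55879715, over 108 and 110 fragments of background. The others were at chr16:83263600-83263823 (305 fragments), chr3:139229823-139230063 (299), chr12:59016101-59016324 (296), chr1:141441171-141441400 (295), chr2:134491240-134491474 (295), chr7:100365588-100365811 (290) and chrX:147299936-147300170 (289). The peak at chr16:58566785-58567018, with 256 fragments, completed the 5 highest backgrounds, at 20.1 times the lowest.

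In all, 55 peaks on 17 chromosomes, 3.13% of the list, stood at 5 times the lowest background or more. Of these, 30 were shorter than 250 bp. At 10 times or more, a limit chosen after the values were seen, there were 21 peaks on 14 chromosomes. Of these, 18 were shorter than 250 bp, and the longest after the 5746 bp peak of chromosome 17 was 342 bp. Although their fold enrichment was low, the largest excess of fragments over the control in the list was at 1 of these sites: 228 at chr4:93867459-93867696, against 153 at the most enriched peak. The control was high at the same places, and its part in these peaks was not tested.

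The threshold of the list lay at different fold enrichments for different backgrounds. At the lowest background the weakest peak had 20 fragments and a fold enrichment of 3.29, at chr2:180500484-180500761. At 2 to under 3 times the lowest the smallest fold enrichment was 2.52 over 260 peaks. At 5 times or more it was 2.02, at chr17:13745650-13745918, where the pileup was 109 fragments. Median fold enrichment was 5.32 at the lowest background, 5.22 above it and under 1.5 times, 4.83 at 1.5 to under 2 times and 3.61 at 3 to under 5 times, while median pileup in these groups went from 33 to 74.5 fragments. A fold enrichment of 3 is therefore within the range of listed peaks over a high control and below that of any listed peak over the lowest one. Each peak entered the list by a cut against the control, with a q threshold of 0.01 in the peak names. A needed pileup that rises with the background is built into such a cut. The trends over these groups are therefore not read as a property of the sites.

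Most Mafk peaks had no other listed Mafk peak within 100 kb. No listed Mafk peak overlapped another, but peak calling may join touching regions, so nothing on spacing is read from this. The gap between neighbouring peaks on a chromosome had a median of 705072 bp (quartiles 235972 to 1805420 bp). Within 10 kb of its edges, 69 of 1759 peaks had another Mafk peak, or 3.92% (95% Wilson interval 3.11 to 4.93). Within 1 kb it was 16 peaks, or 0.910% (0.561 to 1.47), and within 100 kb it was 395, or 22.5% (20.6 to 24.5). In the Bach2 list, which is shorter, 13.3% (11.6 to 15.2) of 1385 peaks had another of the list within 10 kb, and in the Bach1 list 16.4% (15.3 to 17.6) of 3873 had. These shares come from 1 library each and were not tested against each other. The share that the number of peaks alone would give was not computed. Whether Mafk peaks lie closer together or further apart than scattered peaks was therefore not tested.

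**Figure D4:**
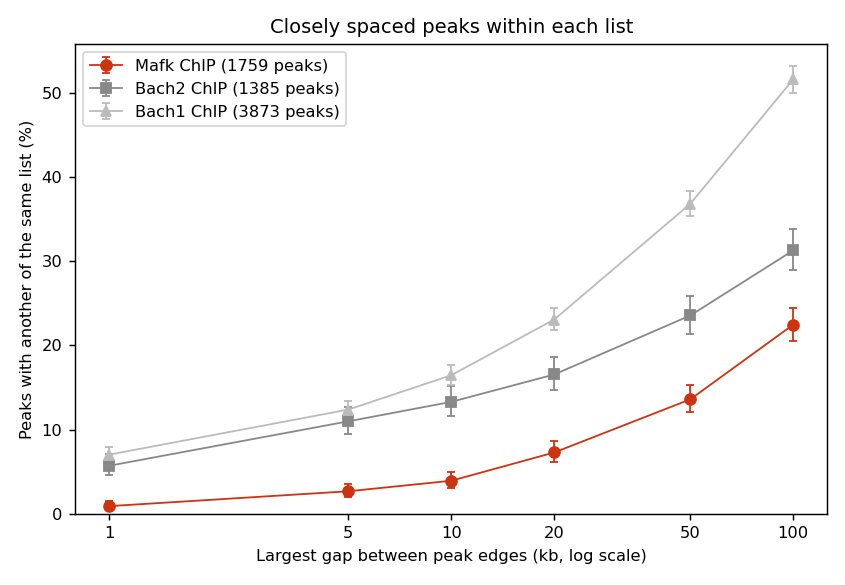
Percentage of peaks with another peak of the same list within the distance on the horizontal axis (kb between peak edges, log scale), with Wilson 95% intervals, for 1 library of each factor. The Mafk line runs from 0.910% at 1 kb to 22.5% at 100 kb and lies below the Bach2 line, which has fewer peaks, at each of the 6 distances drawn.

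The 69 peaks with a close neighbour formed 35 neighbouring pairs on 13 chromosomes, at most 6 of them on 1 chromosome (chromosome 3). They had a median pileup of 58 fragments (quartiles 42 to 78) against 43 (33 to 59) in the other 1690, but a median fold enrichment of 4.42 (3.83 to 6.77) against 4.85 (4.04 to 6.11). Their median background was 1.85 times the lowest against 1.30, and its part in these differences was not tested. Close neighbours were about as alike in height as distant ones: the ratio of the taller to the lower pileup had a median of 1.41 over the 35 pairs and 1.44 over the 1703 neighbouring peaks with gaps of more than 10 kb. It was under 1.5 in 21 of the 35 close pairs, or 60.0%, and in 54.3% of the distant ones.

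The closest pairs were separated by less than the length of a peak. The narrowest gap, 61 bp, was at chr6:3150877-3151548, between peaks of 70 and 74 fragments over backgrounds 4.03 and 5.54 times the lowest. In 8 pairs the gap was at most 1 kb; the pairs named in this paragraph were chosen after their values were seen. A gap of 88 bp at chr16:26498962-26500197 separated peaks of 67 and 80 fragments with fold enrichments of 7.44 and 8.87, both at 1.51 times the lowest background. Their summits were 472 bp apart. A weaker peak, of 31 fragments and 3.89, stood just before them at 26497596 to 26497899, so that 3 Mafk peaks fell within 2602 bp. At chr3:107056763-107059338, a peak of 62 fragments and a fold enrichment of 8.60 stood 1262 bp before the peak of 14.3 named above, both over a low background.

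Dense groups of Mafk peaks were few. When peaks with gaps of at most 50 kb were joined, 1520 peaks, or 86.4%, stood alone, 104 pairs held 208 peaks, 9 groups held 3 peaks and 1 group held 4. The group of 4 was at chr1:169221872-169303159, within one of the densest windows, with pileups of 36, 48, 64 and 30 fragments and fold enrichments of 5.05, 4.88, 2.86 and 4.83. The groups of 3 included chr3:121948498-122004526 (fold enrichments 4.91, 2.87 and 2.73), in the window of high control background. Further groups were at chr5:91170983-91200809 (4.28, 4.39 and 7.01), chr7:87156465-87198628 (4.86, 5.07 and 3.92) and chr9:65135961-65188547 (5.03, 4.96 and 3.76). None of the peaks in these 5 named groups, taken in order of position, was among the 50 most enriched. Another group of 3, at chr11:116898333-116954252, did hold such a peak. Its fold enrichment was 11.3, above the 10.6 at which the 50 most enriched begin.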

How the data were processed

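The deposited file analysed is the Mafk peak list, from 1 library. The Bach1 and Bach2 lists served only for values set beside it. Reads were 51-base pairs, per the labels' protocols. Tools named in the submitters' processing notes, with no settings, are MACS2 2.1.0, BWA 0.7.10 and CASAVA 1.8, and the build is mm9. Per the file headers, the deposited pileup is a signal, a whole number at all 1759 peaks, and the deposited fold enrichment is a ratio to the local control. Peak names carry a q threshold of 0.01. The numbers of reads are not given in the sources used here.

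Background was computed as (pileup + 1) / fold enrichment - 1, with the pseudocount of 1 of MACS2. Lengths of mm9 chromosomes gave densities, and 0 peaks ran past their ends. Gaps were counted between peak edges. Shares have Wilson and counts exact Poisson 95% intervals, medians order-statistic intervals over peaks, with SciPy 1.17.1 and pandas 2.3.3. The interval of the rank correlation is over the 19 autosomes. The code for gaps and backgrounds was run on simulated lists. Their fold enrichments were made with the same formula, so the run checks the code and not the formula on the deposited values. With 1 library no test was run.

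Named were the 10 highest peaks by pileup and by fold enrichment, the 5 longest, the 5 of highest background and the 5 groups with most peaks, ties by position; others were chosen after their values were seen. Members, lists and rules were chosen with earlier results of these data known. Alternatives were other thresholds, gaps and lengths. Planned work on gene starts, target loci and motifs needs mm9 annotation or sequence and was not run.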

Additional observations from a re-analysis of the deposited data

How the results depend on the processing

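Of 22 alternative counts, shares, medians and densities, 10 stayed within 1.5 times the main count or within the main value's 95% interval. With a fold enrichment of at least 5, the number of peaks was 813, their median length 388 bp and their median pileup 47 fragments. With a pileup of at least 40, the number was 1026 and 89.5% of summits lay in the central part of the peak. The share of peaks with a neighbour was 2.67% with a gap of 5 kb, 7.28% with 20 kb and 13.6% with 50 kb, and groups of 3 or more numbered 2 with 20 kb and 19 with 100 kb, which follows from the distance itself. Chosen after seeing the data, a limit of 3 times the lowest background held 209 peaks and one of 10 times held 21. The rank correlation of density and background was 0.619. In alternatives that were not planned it ranged from 0.490 without chromosomes 15 and 16 to 0.814 with the background at Bach1 peaks. No paired analysis was possible because the Mafk list comes from a single library, so no replicate could be left out either. Gene starts and motifs were not run. How far depth limits the list was not tested, and the lowest pileup in it was 20 fragments.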
